A study of Homo sapiens with 6 samples.

Results

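Ribosome biogenesis and RNA polymerase I are described here through 37 genes, taken by symbol from the 18056 genes in the deposited table. They comprise 5 genes of RNA polymerase I and its initiation factors, 4 of box C/D small nucleolar ribonucleoproteins (snoRNPs), 4 of box H/ACA snoRNPs and their chaperone, 8 of small subunit maturation, 13 of large subunit maturation and 3 abundant nucleolar organisers. All 37 were listed, and all 37 passed the filter on low counts that left 13842 genes. RNA sequencing was done on human forebrain organoids grown from the wild-type induced pluripotent stem cell line DYR0100, an established line, with a dorsal forebrain protocol. One group of 3 libraries received vehicle and the other group of 3 received 5 µM Aβ42, the aggregation-prone amyloid-β peptide, for 6 days. The labels describe the 3 libraries of a group as independent biological replicates, give all 6 the same batch, and name no other agent or allele. All organoids came from 1 line, so the spread between libraries holds no spread between donors.

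Ribosomes are assembled in the nucleolus, where RNA polymerase I transcribes the ribosomal DNA repeats into a long precursor. SnoRNPs guide the methylation and pseudouridylation of that precursor, and large sets of assembly factors fold, cut and export the small and large subunits. Growing and dividing cells, such as the progenitors of the developing cortex, make many ribosomes, and post-mitotic neurons also keep a nucleolus.

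Promoter windows are shown for NPM1 and UBTF, the 2 genes whose calls depended on the treatment of replicate number, and for 6 genes that hold the hexamer CACGTG close to the transcription start. CACGTG is the E-box bound by MYC and its partner MAX, and it reads the same on both strands. The sequences are from RefSeq on build GRCh38.p14, and each runs 5′ to 3′ from 60 bases before the start to 30 bases after it, so base 61 of 90 is the first base of the transcript. Where RefSeq gives a gene several starts, the one with CACGTG is shown. For NPM1 the one with a pyrimidine start is shown, and for UBTF the one farther upstream on the strand of the gene. The data do not tell which start the organoids used. Capitals mark CACGTG. The windows are chr5:171387789-171387878 (plus strand) for NPM1, chr17:44220853-44220942 (minus strand) for UBTF, chr19:39846350-39846439 (minus strand) for FBL and chr3:52685972-52686061 (plus strand) for GNL3. The other 4 are chr3:51941875-51941964 (minus strand) for RRP9, chr2:28894607-28894696 (plus strand) for WDR43, chr1:19251745-19251834 (plus strand) for MRTO4 and chr22:30591881-30591970 (minus strand) for PES1.
NPM1: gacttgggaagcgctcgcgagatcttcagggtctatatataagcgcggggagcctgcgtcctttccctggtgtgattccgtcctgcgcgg
UBTF: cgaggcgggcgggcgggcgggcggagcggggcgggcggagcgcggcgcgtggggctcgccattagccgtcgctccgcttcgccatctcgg
FBL: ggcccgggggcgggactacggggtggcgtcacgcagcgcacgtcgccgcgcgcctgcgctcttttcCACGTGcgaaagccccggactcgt
GNL3: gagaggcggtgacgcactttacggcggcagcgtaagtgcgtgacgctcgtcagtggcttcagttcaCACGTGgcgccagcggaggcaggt
RRP9: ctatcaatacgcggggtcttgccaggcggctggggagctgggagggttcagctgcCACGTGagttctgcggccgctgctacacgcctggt
WDR43: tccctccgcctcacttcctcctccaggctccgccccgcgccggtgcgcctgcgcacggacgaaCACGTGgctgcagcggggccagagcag
MRTO4: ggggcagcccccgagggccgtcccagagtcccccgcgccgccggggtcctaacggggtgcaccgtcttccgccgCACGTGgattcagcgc
PES1: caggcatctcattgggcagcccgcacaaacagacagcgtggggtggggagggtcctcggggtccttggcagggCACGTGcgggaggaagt

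The hexamer was present in the 300 bases around a RefSeq start (250 before to 50 after) of 12 of the 32 genes with an entry, or 37.5%. The same search found it in 37 of 130 other ribosome biogenesis genes (28.5%), in 5 of 66 cytosolic ribosomal protein genes (7.58%) and in 1407 of 11307 tested genes (12.4%). It lay downstream of the start at base 7 of the transcript in FBL and GNL3 and at base 4 in WDR43. In RRP9 it began 5 bases upstream of the start and spanned it. A C at the start followed by at least 4 pyrimidines, a search chosen after the values were seen, was found in 4 of the 32 genes (NPM1, FBL, EBNA1BP2 and NOB1), against 47 of 66 ribosomal protein genes (71.2%) and 7.37% of tested genes. The NPM1 and FBL windows above show such a start at base 61. NOP58, NOLC1, RRP12, BOP1 and RRS1 are not shown.

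Total counts were 16465390 to 16742958 per library, and each of the 37 genes had between 96 and 8629 counts in a library. In some gene lists, Aβ42 replicate 2 stood apart from the other Aβ42 libraries and lay nearer to vehicle. CPM is the count over the TMM-scaled library size, used to compare libraries. Over 25 genes of cycling cells, the median deviation of log2(CPM + 0.1) from the 6-library mean was 0.06 in that library, against -0.35 and -0.45 in Aβ42 replicates 1 and 3 and 0.15 to 0.37 in vehicle. Neuronal genes did not follow this, with a summed level of 7275 CPM in Aβ42 replicate 2. Aβ42 replicates 1 and 3 had 7527 and 7435 CPM, and vehicle had 7746 to 8167 CPM. Results without Aβ42 replicate 2 are also given for the calls of the 37 genes and for several other genes and lists. The library was singled out by its values, and leaving out the Aβ42 library nearest to vehicle tends to widen group differences by selection. The p-values without it are therefore descriptions of how far the results depend on it, and not support for a call. SOX2 of radial glia was at 124.6 ± 4.61 CPM in vehicle and at 130.7 ± 10.7 CPM with Aβ42 (mean ± SD, n = 3 each), and STMN2 of neurons at 1117 ± 17.4 and 1129 ± 68.7 CPM. These 2 genes do not stand for their lists, given below, whose median log2 fold changes were 0.05 for radial glia and -0.14 for neurons. Of 9 microglia markers 4 had no count in any library, and their summed level was 0.42 to 0.98 CPM over the 6 libraries. In bulk RNA, fewer cells of a type and less RNA per cell cannot be told apart.

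As a group, the 37 genes were centred on no difference between Aβ42 and vehicle. Their median log2 fold change was 0.0079, against 0.0032 over all tested genes, with 20 genes above zero and 17 below. After Benjamini-Hochberg adjustment of edgeR's quasi-likelihood p-values, 0 of the 37 were under 0.05, and the share of all tested genes under it was 0% in each direction. The smallest adjusted p-value among the 37 was 0.109. Before adjustment, 3 were higher with a p-value under 0.05 (NPM1, GNL3 and WDR75), or 8.11%, where 12.4% of all tested genes reached that level, and 2 lower (UBTF and POLR1A), or 5.41% against 11.5%. The 3 Aβ42 libraries lay wholly above the 3 vehicle libraries for 5 genes (GNL3, WDR75, NHP2, NOP16 and RRN3), or 13.5%, against 13.6% of all tested genes. They lay wholly below for 3 genes (UBTF, GNL3L and MRTO4), or 8.11% against 13.4%. These shares were near or under the background shares. The non-overlap counts depended on the scale: in TPM 0 genes were wholly above (9% of all tested genes) and 5 wholly below (UBTF, BOP1, MRTO4, GNL3L and NCL, 13.5% against 18.6%). With a correction for length 3 were wholly above (RRN3, WDR75 and WDR12, against 13.1%) and 3 wholly below (against 13.4%). Without Aβ42 replicate 2, which leaves 3 libraries against 2, 11 were wholly above (29.7% against 26.9%) and 8 wholly below (21.6% against 26.7%).

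The size of the 37 differences was bounded by the unadjusted intervals of the fit with all 6 libraries and no block. A bound of 1.5-fold is 0.585 on the log2 scale, wider than the median ribosomal protein difference of 0.26 given below. For 36 genes the 95% interval of the fold change lay within 1.5-fold either way, and the exception was UBTF, whose log2 interval ran from -0.68 to -0.08. The size of the log2 fold change was under 0.1 in 21 genes and under 0.2 in 34, and its median was 0.08, against 0.12 over all tested genes. The median standard error was 0.07 and the median distance from the estimate to the end of its 95% interval was 0.16 on the log2 scale.

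**Figure D1:**
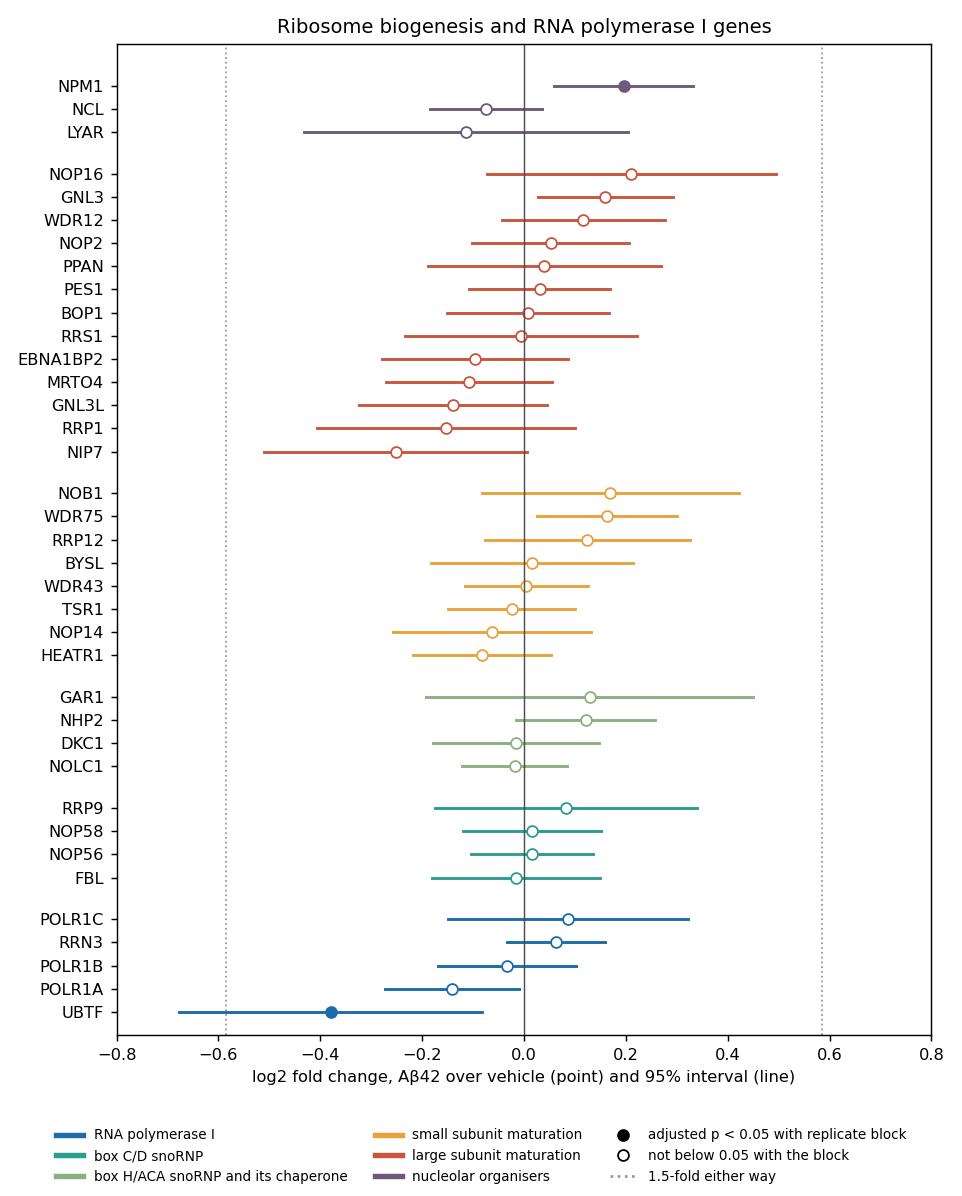
Log2 fold change of Aβ42 over vehicle (x axis) for each of the 37 genes (y axis), grouped and coloured by role, with lines for the 95% interval of edgeR's quasi-likelihood fit without a block and dotted lines at 1.5-fold. Filled points (NPM1 and UBTF) had an adjusted p-value under 0.05 with the replicate number as a block, and 36 of 37 intervals lie within the dotted lines.

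Other fits of the same libraries called few of the 37. With the replicate number as a block, 1 gene passed as higher (NPM1) and 1 as lower (UBTF), or 2.7% each, while 7.12% and 7.05% of all tested genes passed in those directions. Without Aβ42 replicate 2, 3 passed as higher (NPM1, GNL3 and WDR75), or 8.11% against 11.6% of all tested genes. Lower without that library were 4 genes (UBTF, POLR1A, NIP7 and RRP1), or 10.8% against 11.7%. The DESeq2 Wald test called NPM1 as higher and UBTF as lower, 2.7% each, where the shares of all tested genes were 2.77% and 3.03%. Limma on log2(TPM + 1) called 0 of the 37, with 1 higher (NPM1, 2.7% against 7.7% of all tested genes) and 4 lower (UBTF, BOP1, MRTO4 and NIP7, 10.8% against 16.1%) at an unadjusted p-value under 0.05.

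Levels between genes were compared on the TPM scale, which is scaled for transcript length. In vehicle NPM1 was the most abundant of the 37 at 912.9 ± 55.4 TPM, followed by NCL at 341 ± 5.51 TPM and NHP2 at 207 ± 7.98 TPM. Among the others FBL, NOP56, NOLC1 and UBTF were also above 100 TPM, in that order, at 124, 113, 111 and 108 TPM. Their SDs were 7.17, 2.7, 2.29 and 2.59 TPM, and the vehicle libraries of NOP56 and NOLC1, and of NOLC1 and UBTF, overlapped, while those of FBL lay above those of NOP56. The lowest level was 6.68 ± 0.29 TPM for GNL3L, and the median of the 37 was 31 TPM, against 25.9 TPM over all tested genes.

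**Figure D2:**
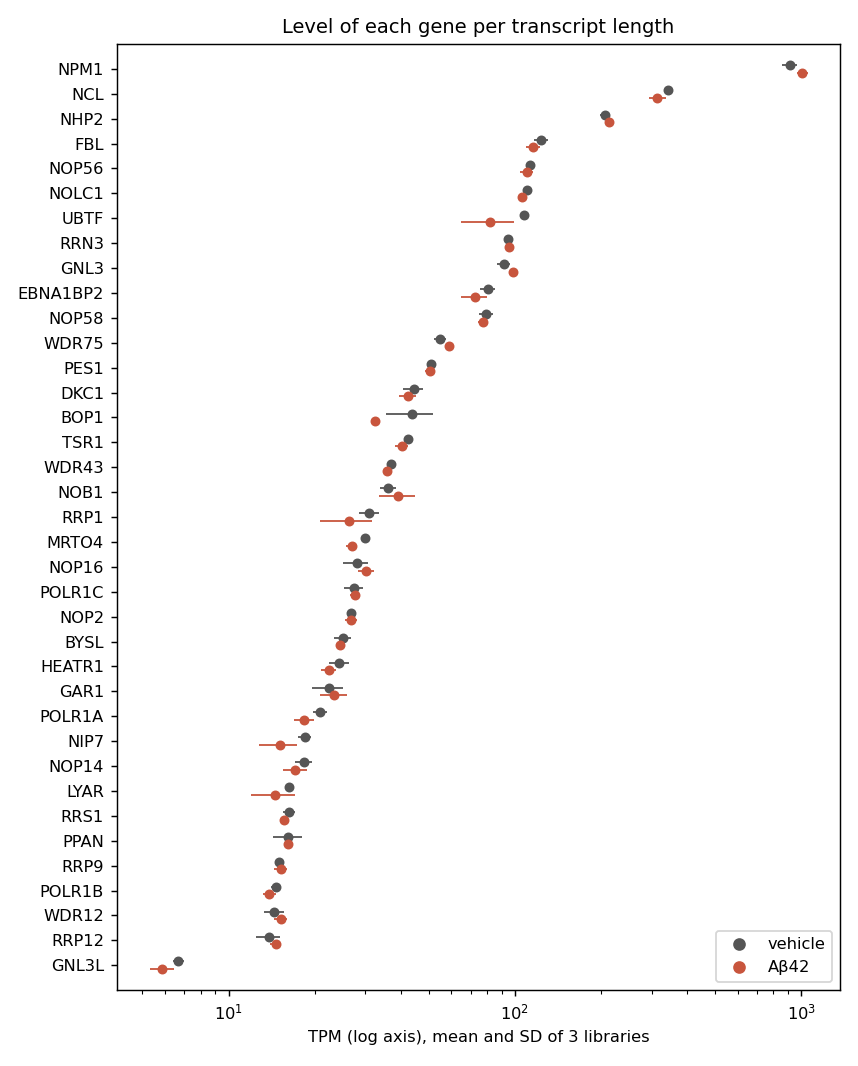
Mean TPM of each gene (log x axis) in vehicle (grey) and Aβ42 (red), with lines for the SD of 3 libraries, sorted by the vehicle level. NPM1 lies at the top near 913 TPM in vehicle and GNL3L at the bottom at 6.68 TPM, and the widest gaps between groups relative to the level are those of UBTF and BOP1.

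RNA polymerase I and its factors held the largest single difference. UBTF, the HMG-box protein that coats active ribosomal DNA and helps to load the polymerase (Entrez gene ID 7343, chr17:44205040-44221304), was at 151, 155 and 151 CPM in vehicle replicates 1 to 3. With Aβ42 it was at 108, 143 and 99.5 CPM in replicates 1 to 3. All 3 Aβ42 libraries lay under all 3 vehicle libraries, with Aβ42 replicate 2 close to vehicle and the other two well below. Its log2 fold change was -0.38 ± 0.13 (SE), with an adjusted p-value of 0.141 without a block and 0.0152 with the replicate block in edgeR's test. Within replicate numbers 1, 2 and 3 the log2 difference was -0.48, -0.11 and -0.60. Without Aβ42 replicate 2 the log2 fold change was -0.55, with an adjusted p-value of 9.71e-05, and without Aβ42 replicate 3 it was -0.28 (0.342). The score of the 25 cycling genes given above was ordered in the same way with Aβ42, highest in replicate 2 and lowest in replicate 3, and its part in the UBTF difference was not tested.

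POLR1A, the largest subunit of RNA polymerase I (Entrez gene ID 25885), was at 99.8, 109.6 and 106 CPM in vehicle and at 93.3, 102 and 90.3 CPM with Aβ42. The groups overlapped, since Aβ42 replicate 2 was above vehicle replicate 1. Its log2 fold change was -0.14 ± 0.06, with an adjusted p-value of 0.185, and it passed (0.0209, log2 fold change -0.20) without Aβ42 replicate 2. POLR1B, the other subunit that forms the catalytic centre, was at 42.6, 44.5 and 44.7 CPM in vehicle and 41.0, 45.1 and 42.7 CPM with Aβ42, a log2 fold change of -0.03 ± 0.06 (adjusted p-value 0.772). POLR1C, a subunit shared with RNA polymerase III, was at 10.9, 10.6 and 9.64 CPM in vehicle and 11.3, 10.2 and 11.6 CPM with Aβ42 (0.09 ± 0.11, adjusted p-value 0.645). For these 2 genes the groups overlapped widely.

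RRN3 links the polymerase to its promoter and is a target of growth signalling, and its mean coefficient of variation within groups (1.45%) was the lowest of the 5. It was at 134, 131 and 129.6 CPM in vehicle and 138, 135.5 and 139 CPM with Aβ42. Every Aβ42 library was above every vehicle library, but the difference was only 0.06 ± 0.04 on the log2 scale (adjusted p-value 0.404, 95% interval -0.03 to 0.16). RRN3 has near-identical pseudogenes. Its counts were whole in all 6 libraries, so divided reads were not seen, but shared reads may have been dropped in counting, which leaves its level uncertain. The median log2 fold change of the 5 genes was -0.03, and it ran from -0.07 to -0.0013 when single libraries were left out.

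**Figure D3:**
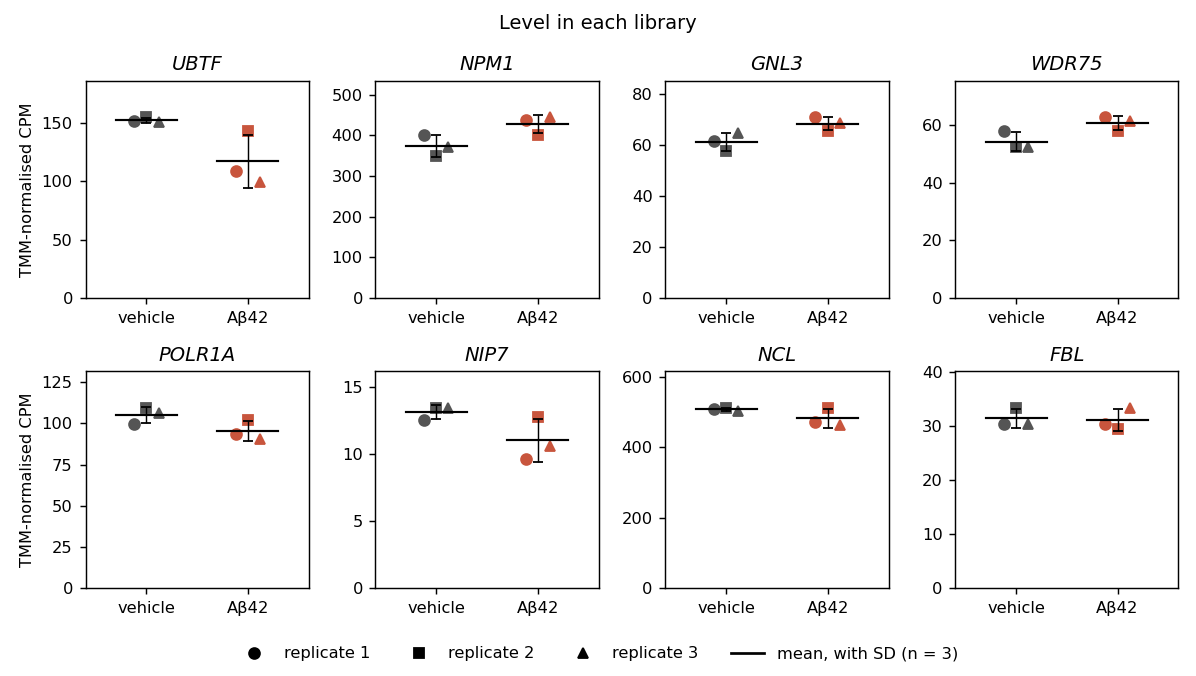
TMM-normalised CPM in each library (y axis, from 0) for 8 of the genes in vehicle (grey) and Aβ42 (red), with the symbol giving the replicate number and lines the mean and SD of 3 libraries. UBTF shows Aβ42 replicate 2 at 143 CPM beside vehicle, with replicates 1 and 3 at 108 and 99.5 CPM, while FBL and NCL overlap between groups.

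Among the nucleolar organisers, NPM1 (nucleophosmin, a chaperone of ribosomal proteins that forms the outer layer of the nucleolus, Entrez gene ID 4869, chr5:171387116-171410900) had the smallest p-value of the 37. It was at 402, 348 and 371 CPM in vehicle and 437, 402 and 445 CPM with Aβ42. The groups touched, with vehicle replicate 1 at 402.2 CPM and Aβ42 replicate 2 at 402.0 CPM. The log2 fold change was 0.20 ± 0.06, with an adjusted p-value of 0.109 without a block and 0.0145 with the replicate block. Within numbers 1, 2 and 3 the log2 difference was 0.12, 0.21 and 0.26. Without Aβ42 replicate 2 it was 0.24 (adjusted p-value 0.011), and without vehicle replicate 2 it was 0.15 (0.359). NPM1 counts were whole in 4 of the 6 libraries, and NPM1 has pseudogene copies, so some of its reads could have been divided.

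NCL (nucleolin, an RNA-binding protein of the nucleolus that acts in transcription and early processing) was at 509.5, 511 and 503 CPM in vehicle and 473, 512 and 462 CPM with Aβ42. Aβ42 replicate 2 was the highest of all 6 libraries and the other two Aβ42 libraries were the lowest. Its log2 fold change was -0.07 ± 0.05 (adjusted p-value 0.383), and -0.12 (0.0666) without Aβ42 replicate 2. LYAR, a nucleolar zinc finger protein, had a log2 fold change of -0.11 ± 0.14, which was 0.02 without Aβ42 replicate 2. The 3 organisers together took 868 to 920.3 CPM in vehicle and 915 to 921 CPM with Aβ42.

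The 4 box C/D proteins lay close to zero, from -0.02 to 0.08 on the log2 scale. FBL (fibrillarin, the methyltransferase of box C/D snoRNPs) was at 30.3, 33.4 and 30.4 CPM in vehicle and 30.4, 29.4 and 33.4 CPM with Aβ42, a log2 fold change of -0.02 ± 0.08 (adjusted p-value 0.913). Its core partners NOP56 and NOP58 had log2 fold changes of 0.01 and 0.02, and RRP9, which is specific to the U3 snoRNP, one of 0.08. The 95% intervals of FBL, NOP56 and NOP58 all lay between -0.18 and 0.15 on the log2 scale.

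Box H/ACA snoRNPs act in pseudouridylation, and their core proteins also bind telomerase RNA. Of the 4 genes of this group, NHP2 was the only one without overlap in CPM. It was at 38.8, 35.5 and 37.9 CPM in vehicle and 41.01, 39.97 and 41.03 CPM with Aβ42, a log2 fold change of 0.12 ± 0.06 (adjusted p-value 0.258). In TPM its groups overlapped, and the log2 fold change was 0.04 on the log2(TPM + 1) scale and 0.06 with the length correction. NHP2 counts were whole in 0 of the 6 libraries, so some of its reads could have been divided. DKC1, the pseudouridine synthase, had a log2 fold change of -0.02 ± 0.07, GAR1 one of 0.13 ± 0.15 and NOLC1, a chaperone of both snoRNP classes, one of -0.02 ± 0.05.

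The 8 genes of small subunit maturation had a median log2 fold change of 0.01. WDR75, a processome protein that acts at the start of precursor transcription, was at 58.2, 52.5 and 52.3 CPM in vehicle and 62.8, 58.2 and 61.5 CPM with Aβ42. All 3 Aβ42 libraries lay above vehicle, although Aβ42 replicate 2 (58.20 CPM) exceeded vehicle replicate 1 (58.15 CPM) only narrowly. The log2 fold change was 0.16 ± 0.06 (adjusted p-value 0.154, and 0.0417 without Aβ42 replicate 2). WDR43 and HEATR1, which act with WDR75, had log2 fold changes of 0.0047 and -0.08, so their signs differed. NOP14 of the same particle was at -0.06. Among late factors, NOB1, the nuclease that makes the final cut of the small subunit RNA, had 0.17 ± 0.11, RRP12 had 0.12 ± 0.09, BYSL 0.02 ± 0.09 and TSR1 -0.02 ± 0.06. Single libraries moved some of these values. NOB1 was at 0.04 without Aβ42 replicate 3, and RRP12 was at 0.05 without vehicle replicate 2 and 0.21 without vehicle replicate 1. None of these passed, with adjusted p-values between 0.385 and 0.931 for the late factors.

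Large subunit maturation held genes on both sides of zero, from -0.25 for NIP7 to 0.21 for NOP16, with a median of 0.0079 over 13 genes. GNL3 (nucleostemin, a nucleolar GTPase known from stem and progenitor cells) was at 61.3, 57.5 and 64.6 CPM in vehicle and 70.8, 65.6 and 68.4 CPM with Aβ42, without overlap. Its log2 fold change was 0.16 ± 0.06 (adjusted p-value 0.151, and 0.0422 without Aβ42 replicate 2). Its paralog GNL3L was at 22.5, 23.7 and 22.5 CPM in vehicle and 21.9, 21.7 and 18.8 CPM with Aβ42, also without overlap but on the other side of zero (-0.14 ± 0.08, adjusted p-value 0.328). The difference between the 2 paralogs was not tested.

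NIP7, a factor needed for large subunit precursor processing, was at 12.5, 13.4 and 13.4 CPM in vehicle and 9.63, 12.8 and 10.6 CPM with Aβ42. The groups overlapped through Aβ42 replicate 2, which was above vehicle replicate 1. Its log2 fold change was -0.25 ± 0.12 (adjusted p-value 0.219), -0.37 (0.0253) without that library, and -0.17 (0.511) without Aβ42 replicate 1. RRP1, also a large subunit factor, had -0.15 ± 0.12 (0.433), -0.29 (0.0403) without Aβ42 replicate 2, and -0.06 (0.819) without Aβ42 replicate 1. NOP16 was at 5.77, 6.81 and 6.22 CPM in vehicle and 7.44, 7.48 and 6.84 CPM with Aβ42. It had only 96 to 126 counts in a library. All Aβ42 libraries lay above vehicle, but Aβ42 replicate 3 exceeded vehicle replicate 2 only narrowly, and in TPM the groups overlapped. The log2 fold change of NOP16 was 0.21 ± 0.13 (adjusted p-value 0.34).

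The PeBoW complex, in which PES1, BOP1 and WDR12 act together on the large subunit precursor, gave log2 fold changes of 0.03 ± 0.06, 0.01 ± 0.07 and 0.12 ± 0.07. WDR12 was at 47.4, 41.9 and 49.8 CPM in vehicle and 52.8, 49.0 and 49.0 CPM with Aβ42, with overlap between groups (adjusted p-value 0.349). BOP1 was the gene whose value depended most on the unit. In counts it was at 28.5, 27.7 and 25.4 CPM in vehicle and 26.9, 28.0 and 27.1 CPM with Aβ42, while on the log2(TPM + 1) scale its log2 fold change was -0.40 (adjusted p-value 0.121 with limma). Its TPM values were 48.2, 48.7 and 34.2 in vehicle and 33.6, 31.7 and 32.5 with Aβ42, so vehicle replicates 1 and 2 stood above the other 4 libraries. The transcript length implied by count over TPM differed 1.52-fold between libraries for BOP1, and at most 1.11-fold for the other 36 genes. The remaining large subunit factors NOP2, PPAN, RRS1, EBNA1BP2 and MRTO4 had log2 fold changes of 0.05, 0.04, -0.0065, -0.10 and -0.11.

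Beyond the 37, further ribosome biogenesis genes were counted in 5 lists with 152 members. Their median log2 fold change was 0.02. At an unadjusted p-value under 0.05, 17 were higher (11.2%) and 8 lower (5.26%), against 12.4% and 11.5% of all tested genes. After adjustment, edgeR's fit of all 6 libraries without a block called 0 in either direction. Without Aβ42 replicate 2, 9 of the 152 passed as higher and 5 as lower, where 11.6% and 11.7% of all tested genes passed. With the replicate block 3 passed as higher (TAF1D, AATF and GNL2) and 5 as lower (KRR1, DDX52, UTP14A, UTP20 and EXOSC6), names read off after the values were seen, shares under the 7.12% and 7.05% of all tested genes. Of 16 other RNA polymerase I and ribosomal DNA transcription genes, 3 were higher at an unadjusted p-value under 0.05 (POLR1G, POLR1H and TAF1D), or 18.8% against 12.4% of all tested genes, and 0 lower, against 11.5%. POLR1G, a polymerase subunit, went from 4.16 ± 0.24 to 5.73 ± 1.32 CPM (0.46 ± 0.18, adjusted p-value 0.167, and 0.26 without Aβ42 replicate 3). TAF1D, a subunit of the promoter selectivity factor, went from 24.9 ± 1.67 to 29.8 ± 4.5 CPM (0.26 ± 0.11, 0.186 without and 0.047 with the block), and the blocked call was lost with the length correction added (0.0858). Without Aβ42 replicate 1 the TAF1D value was 0.15, and without replicate 2 it was 0.37 and passed the threshold. POLR1G and POLR1A, both subunits of the enzyme, had estimates on opposite sides of zero. Neither passed in the fits of all 6 libraries, and the difference between them was not tested.

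Of 49 other small subunit genes, 4 were higher (AATF, DDX10, NGDN and IMP4, 8.16% against 12.4%) and 6 lower (12.2% against 11.5%) at an unadjusted p-value under 0.05. The smallest p-values there belonged to KRR1, a processome protein, which went from 91.6 ± 9.98 to 72.6 ± 6.64 CPM (-0.34 ± 0.09, adjusted p-value 0.0846 without and 0.00191 with the block), and to DDX52, an RNA helicase, at 53.7 ± 1.81 and 45.3 ± 4.14 CPM (-0.24 ± 0.07, 0.0963 and 0.02). Both had no overlap between groups. The DESeq2 Wald test, run without a block, called KRR1 (adjusted p-value 0.0115) and not DDX52 (0.0863). Without Aβ42 replicate 2 edgeR's adjusted p-values were 0.0084 for KRR1 and 0.00374 for DDX52. Of 52 other large subunit genes, 9 were higher (17.3% against 12.4%) and 1 lower (HEATR3, 1.92% against 11.5%), with SBDS, which helps to release the last assembly factor from the large subunit, at 0.15 ± 0.05 (adjusted p-value 0.121) and PELP1 at 0.20 ± 0.07 (0.121). Without Aβ42 replicate 2 edgeR's adjusted p-values were 0.0497 for SBDS and 0.0144 for PELP1. Of 11 snoRNP assembly genes 0 reached an unadjusted p-value under 0.05, with NOP10 at 0.14 and PIH1D1 at 0.12. Of 24 precursor nucleases 1 was higher (DIS3, 0.10 ± 0.05) and 1 lower (EXOSC6), 4.17% each, against 12.4% and 11.5%. The exosome subunit EXOSC6 was at -0.25 ± 0.07 (adjusted p-value 0.0807 without and 0.0227 with the block). Without Aβ42 replicate 2 its adjusted p-value was 0.0127.

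The cytosolic ribosomal proteins, which these factors assemble with ribosomal RNA, were read from the same fit. Over their 82 tested genes the median log2 fold change was 0.26, and 71 were higher and 1 lower at an unadjusted p-value under 0.05, against 12.4% and 11.5% of all tested genes. The single lower gene was RPL7L1 (-0.16 ± 0.06), a paralog of a ribosomal protein. After adjustment 0 of the 82 passed in edgeR's fit of all 6 libraries without a block. With the replicate block 70 passed as higher (85.4%) and 1 as lower (1.22%), against 7.12% and 7.05% of all tested genes. Without Aβ42 replicate 2 the median was 0.32. For the ribosomal proteins, vehicle replicates 1 to 3 had a median deviation of log2(CPM + 0.1) from the 6-library mean of -0.04, -0.22 and -0.15, and Aβ42 replicates 1 to 3 had 0.18, 0.03 and 0.20, without overlap. For the 37 genes the vehicle libraries had 0.02, 0.02 and 0.0008 and the Aβ42 libraries 0.0065, 0.02 and 0.02, so the groups overlapped. Ribosomal protein transcripts are short and polyadenylated RNA was sequenced, and the log2 fold change ran with transcript length over all tested genes (Spearman's rho -0.159) and over the 37 (-0.372), given as descriptions across genes. With a correction for length the medians were 0.19 for the ribosomal proteins and -0.01 for the 37. The difference between the lists was not tested.

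The cycling genes lay on the other side of zero, with a median log2 fold change of -0.47 and 25 of 25 below zero. At an unadjusted p-value under 0.05, 22 were lower, or 88%. Of all tested genes, 12.4% were higher and 11.5% lower at that level. After adjustment 0 of the 25 passed in edgeR's fit of all 6 libraries without a block. With the replicate block 23 passed as lower (92%) and 0 as higher, against 7.05% and 7.12% of all tested genes. Without Aβ42 replicate 2 the median was -0.61. The summed level of the cycling genes was 1246 to 1465 CPM in vehicle and 826 to 1158 CPM with Aβ42. Intermediate progenitor genes took 438 to 499.9 CPM in vehicle and 334 to 388 CPM with Aβ42 (median -0.40, 8 of 10 lower at an unadjusted p-value under 0.05). After adjustment 0 of these 10 passed without a block, and 7 passed as lower (70%) and 0 as higher with it. Their median was -0.56 without Aβ42 replicate 2. At the unadjusted level, neuronal genes had a median of -0.14 (1 of 13 higher, 6 lower) and radial glia genes one of 0.05 (1 of 12 higher, 3 lower). With the block 5 neuronal and 3 radial glia genes passed as lower (38.5% and 25%) and 0 as higher. Astrocyte genes had a median of -0.54 (1 of 8 higher, 1 lower, 12.5% each). Choroid plexus genes had a median of -0.48 (7 tested, 0 in either direction, summed level 467 to 987 CPM in vehicle and 408 to 919 CPM with Aβ42). Forebrain identity genes had a median of 0.03 (5 tested, 0 in either direction). Leaving out vehicle replicate 2 turned the choroid plexus median to 0.09, and it was -0.13 and -0.22 without Aβ42 replicates 1 and 3. Without Aβ42 replicate 1 the astrocyte median was -0.25. With Aβ42 replicate 2 left out it was -1.04, and the forebrain identity median -0.0014. Endothelial and mesenchymal genes had a median of -0.20 (6 tested, 0 in either direction, -0.06 without vehicle replicate 2), and pluripotency genes summed to 1.19 to 2.13 CPM over the 6 libraries. The part of these cell type markers in the values of the 37 genes was not tested.

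**Figure D4:**
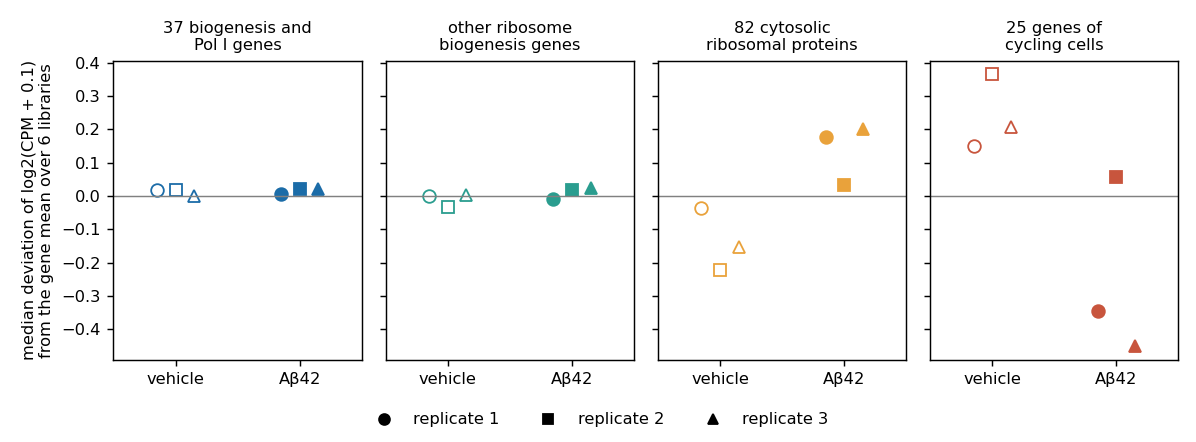
Median deviation of log2(CPM + 0.1) from the gene mean over 6 libraries (y axis) in each library, for the 37 genes, 152 other ribosome biogenesis genes, 82 cytosolic ribosomal proteins and 25 genes of cycling cells, with open symbols for vehicle, filled symbols for Aβ42 and the shape giving the replicate number. The 37 genes stay between 0.0008 and 0.02 and the other biogenesis genes between -0.03 and 0.02, while ribosomal proteins are higher and cycling genes lower with Aβ42, with Aβ42 replicate 2 nearest to vehicle in both.

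MYC and MYCN, transcription factors known to drive ribosome biogenesis genes, were read in the same fit. MYC was at 15.3, 9.85 and 14.4 CPM in vehicle and 15.4, 16.6 and 17.7 CPM with Aβ42, narrowly without overlap (0.33 ± 0.15, adjusted p-value 0.21). Vehicle replicate 2 was the lowest, and without it the log2 fold change was 0.16. MYCN was at 86.8, 95.9 and 88.2 CPM in vehicle and 84.9, 92.4 and 87.03 CPM with Aβ42 (-0.03 ± 0.06, adjusted p-value 0.735). The 12 of the 37 genes with CACGTG near a start, among them FBL, GNL3, RRP9, WDR43, MRTO4 and PES1 shown above, had a median log2 fold change of 0.01, and the 20 without it one of -0.0002. Over all tested genes these medians were -0.0012 and 0.0017. Among the 4 genes with a pyrimidine start, NPM1 had a log2 fold change of 0.20, FBL -0.02, EBNA1BP2 -0.10 and NOB1 0.17.

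Of the 37 genes 8 hold snoRNA genes on the same strand within their span in GENCODE version 29 (NOP56, NOP58, DKC1, WDR43, TSR1, PPAN, GNL3 and NCL), or 21.6%, against 223 of 13510 tested genes (1.65%). GNL3 and NOP56 hold 5 each, and NOP58 holds 4. SnoRNAs of this kind are released from the introns of their host, so the mRNA values above do not measure them. The median log2 fold change of the 8 hosts was 0.01, as was that of all 223 hosts, and GNL3 had the largest of the 8.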

How the data were processed

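Polyadenylated RNA of 6 libraries (3 vehicle, 3 Aβ42) was sequenced from stranded, PCR-amplified libraries, per the labels' protocols. For every gene and library the authors deposited 2 values, a read count and a TPM. As 86.86% to 87.5% of the deposited counts in a library were whole, they were treated as estimated counts and rounded. The deposited TPM values are scaled for length and library total, per the file headers. Per the submitters' processing notes FastQC, STAR 2.7.11b, featureCounts 2.0.6 and GRCh38 were used, with no roles given, and the annotation is not given in the sources used here. Whether counting used strand is not stated.

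Genes were kept by filterByExpr (13842 of 18056), scaled by TMM (factors 0.9963 to 1.0063) and compared with the quasi-likelihood test of edgeR 4.0.16 (robust, no block) in R 4.3.3. Tests were two-sided, with Benjamini-Hochberg adjustment over all tested genes and a threshold of 0.05. Standard errors are the log2 fold change over the square root of the F statistic. CPM are counts over the TMM-scaled library size. Alternatives were RLE scaling, other filters, DESeq2 1.42.0, limma 3.58.1 on log2(TPM + 1) and log2(TPM + 0.1), a replicate block, a correction for gene length by a per-library loess trend (span 0.3), and leaving out each library. The median tested gene had 495.5 to 516 counts, and the biological coefficient of variation was 6.75%. No molecular identifiers are mentioned, so counting error does not cover amplification. The steps were tested on simulated data. Chi-square per gene between libraries was 3.16 to 21.2, so none was taken as a duplicate.

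The labels do not say what a replicate number shares. Deviations from the group means correlated at 0.198, 0.411 and 0.133 between libraries of the same number 1, 2 and 3 over the 12187 genes that averaged 50 counts or more. All were above 0.1, so the fit with the replicate block is printed beside the results it changes, while main values come from the fit without it. This pairing rests on the data alone, and number 3 correlated more highly with another number (0.208).

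The members and lists were chosen with earlier results of these data known. Values in every library are given for the 10 members with the smallest p-values and for NCL, NPM1, FBL, POLR1A, POLR1B, POLR1C, UBTF and RRN3, and, chosen after its values were seen, for BOP1. Of each further biogenesis list the 2 genes with the smallest p-values are named, and MYC and MYCN of the 12 genes of the MYC network (median log2 fold change -0.02, 1 higher, MYCL, and 1 lower, MXD4, at an unadjusted p-value under 0.05). The MYC network shares were 8.33% in each direction, against 12.4% and 11.5% of all tested genes. Other genes were named after their values were seen. SOX2 and STMN2 are level checks, and 1 result that the naming rule lists is not reported here. Promoter and gene coordinates are those of RefSeq on GRCh38.p14.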

Additional observations from a re-analysis of the deposited data

How the results depend on the processing

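Calls depended on the fit. Over all tested genes 0 passed in either direction in the main edgeR fit without a block. Genes called higher and lower were 189 and 171 when no low-count filter was used and 384 and 420 by DESeq2. They were 986 and 976 under the replicate block, and 1031 and 960 under the replicate block plus the length correction. When single libraries were left out they were 0 to 1609 and 0 to 1619, with calls only without Aβ42 replicate 2. The cause of the filter and DESeq2 differences was not tested. Of the 37 genes, 0 higher and 0 lower became 1 and 1 in 3 of these fits, DESeq2, the replicate block, and the block plus the length correction. Leaving out single libraries gave 0 to 3 higher and 0 to 4 lower. The replicate block changed no call of the 37 other than NPM1 and UBTF. Those 2 genes each passed in 4 of 15 alternatives, with adjusted p-values from 0.011 to 0.359 for NPM1 and from 9.71e-05 to 0.355 for UBTF.

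The median log2 fold change of the 37 genes was 0.0079. It was -0.0397 on the log2(TPM + 1) scale and -0.0407 on the log2(TPM + 0.1) scale, where the medians of all genes were -0.0401 and -0.0434. With the length correction it was -0.0136, with that correction and the replicate block -0.014, and -0.0005 to 0.0209 when single libraries were left out. Of the 37 genes 22 kept their sign in all 15 alternatives, and the 15 that changed it in some had main values of at most 0.114 in size.

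In TPM, with pseudocounts of 1 and 0.1, the sign changed for PES1 (-0.0133 and -0.0136), NOP56 (-0.0353 and -0.0356), NOP58 (-0.033 and -0.0334), BYSL (-0.0337 and -0.0349), BOP1 (-0.3958 and -0.4049) and WDR43 (-0.0397 and -0.0407). With the length correction, without and with the replicate block, it changed for POLR1B (0.0036 and 0.0028), NOP56 (-0.0136 and -0.014), NOP58 (-0.0118 and -0.0113), BYSL (-0.0185 and -0.0178) and BOP1 (-0.0185 and -0.0176). Leaving out single libraries gave ranges across zero for LYAR (-0.2412 to 0.0162), NOP14 (-0.1234 to 0.0085), TSR1 (-0.0521 to 0.021), NOLC1 (-0.043 to 2.1e-05), PPAN (-0.0484 to 0.1102), NOP56 (-0.0202 to 0.0434), NOP58 (-0.008 to 0.0601), FBL (-0.0712 to 0.0309), DKC1 (-0.0766 to 0.029), BYSL (-0.0324 to 0.0528), BOP1 (-0.0393 to 0.0436), WDR43 (-0.009 to 0.0258), RRS1 (-0.0365 to 0.0122) and MYCN (-0.0704 to 0.0111).

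With 3 libraries a group, the median distance from an estimate to the end of its unadjusted 95% interval was 0.163 on the log2 scale over the 37 genes. Genes with few counts, such as NOP16 with 96 in a library, are among those with wider intervals.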
